A study of Mus musculus with 10 samples.

Results

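Keratins and epithelial junction genes were followed across mammary tumours that carry different strain names. The set holds 10 genes of the 8252 that the arrays name with a single symbol. Krt8, Krt18, Krt19 and Krt7 are the keratins of luminal cells, Krt5 and Krt14 those of basal cells, and Cdh1, Epcam, Cldn3 and Cldn4 encode proteins of cell adhesion and tight junctions. All probe sets annotated to these genes were taken, 13 in all. Of the 10 genes, 8 had a probe set bright enough to be tested, and Krt5 and Krt14 had none.

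The material was total RNA of mammary tumours, taken from female adults at an age of 90 days and hybridised to 10 short oligonucleotide arrays. The series title places the mice in the MMTV-PyMT model, whose transgene expresses polyomavirus middle T antigen in mammary epithelium under the MMTV promoter. The titles name a strain on 9 arrays: FVBn on 1 array (B), and ILn, LP, MOLF and NZB on 2 arrays each (A and B). Each of these 9 titles also calls the sample a mix, with no word on what was mixed, and the strain label reads FVB/Nj on every array, so the groups rest on the titles. The array whose title names no strain entered no comparison. The labels leave unsaid whether arrays A and B come from different animals, and the p-values therefore cover only the spread between arrays, which may be technical.

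Keratins are the intermediate filament proteins of epithelial cells. A filament forms only when a type I keratin (such as Krt18, Krt19 or Krt14) pairs with a type II keratin (such as Krt8, Krt7 or Krt5). In the mammary gland Krt8 and Krt18 fill the luminal cells that line the ducts, with Krt19 and Krt7 beside them, whereas Krt5 and Krt14 mark the outer layer of basal and myoepithelial cells. Epithelial cells hold together through E-cadherin, the product of Cdh1, and seal the space between them with claudins, and PyMT tumours are usually classed as luminal. In bulk tumour RNA, fewer cells of a type and less RNA per cell cannot be told apart.

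Values are log2 intensities after quantile normalization, with a floor at 4.75 (an intensity of 27.0) below which signal was not read. Each strain name with 2 arrays was compared with the mean of the other 3 such names, the mean of those 4 with FVBn, and an F test asked whether any of the 4 differed. The trimmed mean of the deposited intensities was 149 to 149.6, except on ILn A at 498.1. MOLF A and NZB B were unlike their partners: the correlation within a strain was 0.981 for ILn and 0.971 for LP, but 0.903 for MOLF and 0.89 for NZB. The log2 ratio of 3' to 5' actin signal, a sign of RNA quality, also differed by strain name, at 0.22 to 0.28 for FVBn and ILn, 0.60 to 0.78 for MOLF and 0.94 to 1.12 for LP and NZB. Precision is limited throughout by how few arrays there are.

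Luminal keratins were measured well above the floor in tumours of every strain name, and among the 10 genes only Krt19 passed a test, being lower in MOLF. In limma 1 of the 8 tested genes passed the F test over ILn, LP, MOLF and NZB, where 0.748% of all 9899 tested probe sets did. The same gene passed for MOLF, in which 0.283% of all probe sets passed as lower and 0.414% in either direction. No member passed for ILn (background 0.404%, 1 member at an unadjusted p under 0.05), LP (0.313%, 1 member), NZB (0.101%, 1 member) or the 4 strains against FVBn (0.313%, 0 members). Without adjustment 3 of the 8 genes had a p under 0.05 in the F test and 3 for MOLF.

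**Figure D1:**
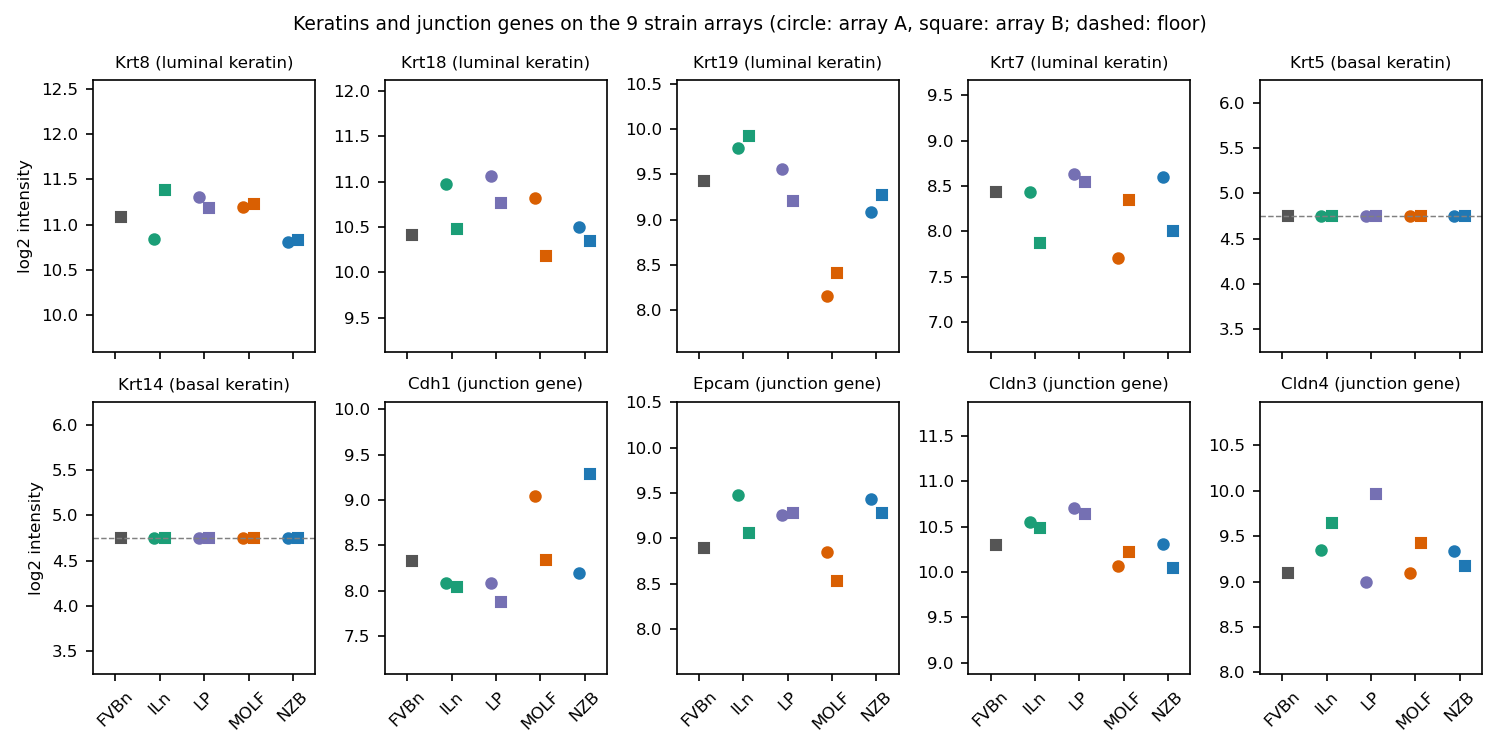
Log2 intensity (vertical axis, the same span in each panel) of the 10 genes on the 9 strain arrays, by strain name; circles are A arrays, squares are B arrays and the dashed line is the floor at 4.75. Krt19 lay at 8.16 and 8.41 on the MOLF arrays, below the 7 others at 9.09 to 9.92, while Krt5 and Krt14 lay at the floor throughout.

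The plot of the members by array shows a few kinds of pattern. Krt19 separated by strain name with close pairs. Krt8, Krt18, Krt7, Epcam, Cldn3 and Cldn4 stayed within 1 log2 unit over all 9 arrays. Cdh1 was highest on a single array each of MOLF and NZB, and Krt5 and Krt14 gave no reading above the floor.

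Krt19 (probe set 92550_at), the smallest type I keratin and one without a tail domain, was the member that differed most between strain names. It measured 8.16 on MOLF A and 8.41 on MOLF B, 9.79 on ILn A and 9.92 on ILn B, 9.56 on LP A and 9.21 on LP B, 9.09 on NZB A and 9.27 on NZB B, and 9.43 on FVBn B. Both MOLF arrays lay below all other strain arrays and both ILn arrays lay above them. Against ILn, LP, MOLF and NZB alone, 3.38% of all tested probe sets were lower on both MOLF arrays in this way and 6.6% were higher on both ILn arrays. By strain mean the order was ILn (9.85 ± 0.087, SD, n = 2), FVBn (9.43, 1 array), LP (9.39 ± 0.25), NZB (9.18 ± 0.12) and MOLF (8.29 ± 0.18). Of the neighbours in that order, FVBn and LP overlapped, as did LP and NZB, whereas ILn and MOLF overlapped with no other strain name.

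Krt19 fell in MOLF by 1.19 on the log2 scale against the mean of ILn, LP and NZB (SE 0.152, 95% interval −1.54 to −0.83, limma adjusted p = 0.0274), 2.28-fold lower. Over the 4 strains the range of its means was 1.57, or 2.96-fold (limma F test, adjusted p = 0.0475). In ILn the difference was 0.90 (0.55 to 1.26, adjusted p = 0.0877), which did not pass. Both calls lay close to the threshold: the MOLF difference ran from −1.31 to −0.94 over all settings, yet passed in 3 of 19 tested alternatives, with adjusted p-values of 0.0166 to 0.547, and the F test passed in 3 of 19 (0.0314 to 0.633). Leaving out any single ILn, LP, MOLF or NZB array ended the MOLF call (adjusted p 0.0655 to 0.273, differences of −1.30 to −1.08).

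The direction in MOLF was the same on each title date. On the date that LP A and MOLF A share, MOLF A differed from LP A by −1.40, and on the date that holds all 5 strain names MOLF B differed from LP B by −0.80. On that date MOLF differed from the mean of ILn, LP and NZB by −0.99, with 1 array each and no test. With the title date as a block the difference was −1.19 (adjusted p = 0.271), and with MOLF A and NZB B left out it was −1.07 (adjusted p = 0.263).

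**Figure D2:**
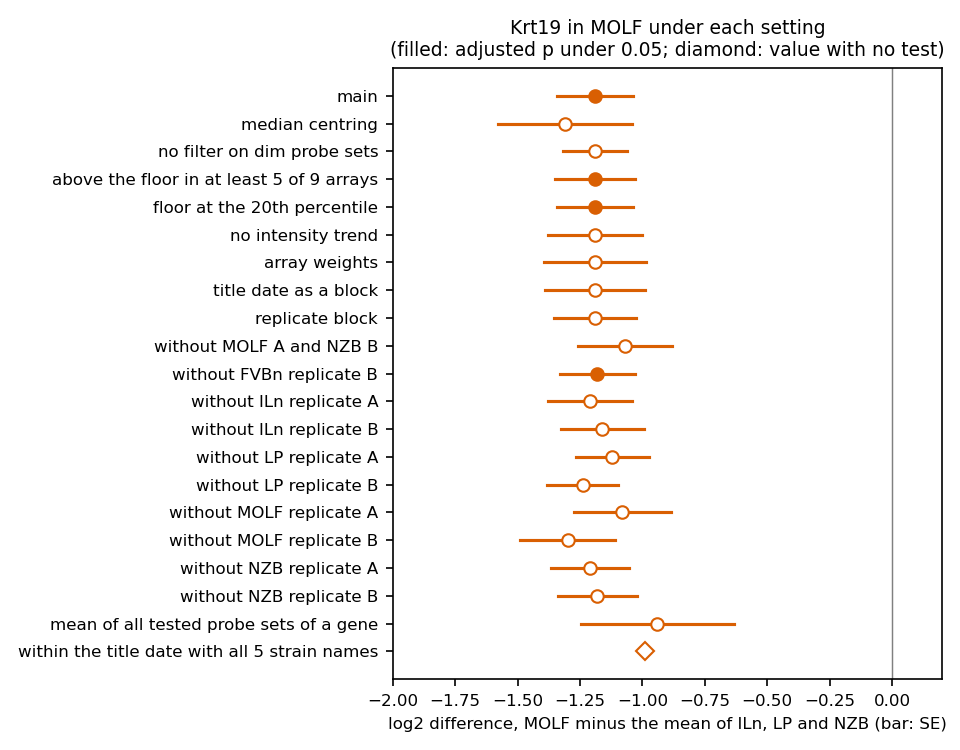
Log2 difference of Krt19 in MOLF from the mean of ILn, LP and NZB (horizontal axis) under the reported setting and each alternative; bars are the SE, filled points have an adjusted p under 0.05, and the diamond is a value with no test. The difference lies between −1.31 and −0.94 in each setting, and most points are open.

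The plot of Krt19 under each setting separates the size of the difference from its call. The size stayed within 0.94 to 1.31 log2 units lower. The call was lost in each tested alternative except the stricter filter on dim probe sets, the lower floor and the omission of FVBn B.

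A second probe set of Krt19, 102121_f_at, was dim and did not pass. The letter f in its name marks, in the naming of this array type, a probe set whose probes may match related sequences. It measured 5.44 on MOLF A, lay at the floor on MOLF B and NZB A, and measured 5.20 to 6.41 on the other 6 strain arrays. Its MOLF difference was −0.70 (−1.84 to 0.44, adjusted p = 0.897), and its ILn difference was 0.75 (adjusted p = 0.812), so that its direction was that of the brighter probe set. With the mean of both probe sets the MOLF difference was −0.94 (adjusted p = 0.547).

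Krt8 (101009_at), the type II keratin of simple epithelia, was nearly level. It measured 11.08 on FVBn B, 10.84 and 11.38 on ILn A and B, 11.31 and 11.18 on LP A and B, 11.20 and 11.23 on MOLF A and B, and 10.81 and 10.83 on NZB A and B. Both NZB arrays were the lowest, just under ILn A, and ILn, LP and MOLF overlapped. The NZB difference was −0.37 (−0.73 to −0.02, limma adjusted p = 0.58). Values below all 6 arrays of the other 3 strains occurred in NZB for 4.24% of all tested probe sets. The MOLF difference of Krt8 was 0.16 (−0.20 to 0.52).

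Krt18 (94270_at), the type I partner of Krt8, had no strain name beyond all others. It measured 10.41 on FVBn B, 10.97 and 10.48 on ILn A and B, 11.06 and 10.76 on LP A and B, 10.82 and 10.18 on MOLF A and B, and 10.50 and 10.34 on NZB A and B. The MOLF arrays differed from each other by 0.65, more than any 2 strain means of Krt18 did (0.49), and both LP arrays lay above both NZB arrays and FVBn B. Its largest difference was 0.36 in LP (−0.13 to 0.86, adjusted p = 0.903). A second probe set, 162191_at, lay at the floor on all 10 arrays, so that a floor value bounds the signal of a probe set and not the amount of a transcript.

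Krt7 (97920_at), a type II keratin of ducts and simple glandular epithelium, also had no strain name beyond all others. It measured 8.43 on FVBn B, 8.44 and 7.87 on ILn A and B, 8.63 and 8.55 on LP A and B, 7.71 and 8.35 on MOLF A and B, and 8.60 and 8.01 on NZB A and B. Gaps within ILn, MOLF and NZB of 0.57 to 0.64 were as wide as the range of the strain means (0.56, limma F test adjusted p = 0.827), and both LP arrays lay above those of ILn, MOLF and FVBn while overlapping with NZB. Its differences ran from −0.32 in MOLF (−0.94 to 0.30) to 0.43 in LP (−0.19 to 1.05).

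The 4 luminal keratins did not move as a block. Their mean deviation from each gene's own mean was −0.29 ± 0.05 in MOLF (SD, n = 2) and −0.12 ± 0.097 in NZB, against 0.23 ± 0.15 in LP, 0.16 ± 0.071 in ILn and 0.04 on the FVBn array. Without Krt19, a set formed after the values were seen, the MOLF arrays stood at −0.09 and −0.08 and the ILn arrays at 0.09 and −0.09. Krt8 and Krt18, which pair in filaments, had a correlation of 0.09 over the 9 arrays, 8 of which are pairs of one strain name. Krt8 with Krt19 gave −0.07 and Krt18 with Krt19 gave 0.25.

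Krt5 (94317_at) and Krt14 (101041_at), the keratin pair of basal cells, lay at the floor on all 10 arrays. Their deposited intensities were 4.16 to 21.5 for Krt5 and 6.74 to 14 for Krt14, under the floor of 27.0 in each case. Each gene had 1 probe set. A shift of luminal against basal keratins could therefore not be formed for any strain name, since the basal side has only an upper bound. No fold between strain names is given for them.

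Other genes of the basal compartment were read on the same arrays. Of 22 basal and myoepithelial genes listed, 20 had a probe set and all 20 could be tested, with 0 rising and 0 falling in limma in any comparison. Lgals7, galectin 7 of stratified epithelium, had the smallest p of them in the F test (adjusted p = 0.356). It measured 6.46 and 6.70 on the ILn arrays, 7.54 and 7.96 on LP, 7.43 and 7.31 on MOLF, 7.62 and 7.70 on NZB and 8.42 on FVBn, lowest in ILn without overlap. The share of all probe sets lower on both ILn arrays in this way is not given here. Itgb4, the integrin chain of hemidesmosomes, measured 8.85 and 8.45 on the NZB arrays and 9.11 to 9.59 on ILn, LP and MOLF (F test adjusted p = 0.425). Over all tested probe sets, 4.24% were lower on both NZB arrays in this way. In NZB 11 of the 20 genes lay above 0, with a median difference of 0.14. Of 8 markers of mammary basal or myoepithelium, some of them in that list, 5 were tested and 0 passed. Their median difference in NZB was 0.53, with 4 of 5 above 0. Their summed intensity was 892 to 1240 in NZB and 568 to 863 on the other strain arrays. Trp63, the transcription factor of basal cells, named after its values were seen, lay between 5.80 and 6.74 on the 9 arrays, with NZB (6.33 and 6.74) above LP (6.2 and 5.80) and overlapping with ILn and MOLF.

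Cdh1 (98140_at), which encodes E-cadherin, was highest on MOLF A and NZB B, the arrays unlike their partners. It measured 9.04 on MOLF A against 8.34 on MOLF B and 9.29 on NZB B against 8.19 on NZB A. On the remaining arrays it measured 8.33 on FVBn B, 8.08 and 8.04 on ILn, and 8.08 and 7.87 on LP. The gap of 1.10 within NZB was larger than the range of the strain means (0.77, limma F test adjusted p = 0.811). MOLF and NZB overlapped with each other, as did ILn and LP, and all 4 arrays of MOLF and NZB lay above all 4 of ILn and LP. How many of all probe sets split in this way was not counted. Its NZB difference of 0.50 (−0.23 to 1.24, adjusted p = 0.671) became −0.05 without NZB B.

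Epcam (99582_at), a homophilic adhesion molecule of epithelial cells, was lowest in MOLF. It measured 8.85 and 8.53 on MOLF A and B, 9.48 and 9.06 on ILn, 9.26 and 9.28 on LP, 9.43 and 9.28 on NZB and 8.89 on FVBn B. Both MOLF arrays lay below the 6 arrays of ILn, LP and NZB, as for 3.38% of all tested probe sets, with FVBn just above them. The difference was −0.61 (−0.99 to −0.23, 1.53-fold lower) and did not pass (limma adjusted p = 0.403). It kept its sign in all alternatives, from −0.83 to −0.45, and passed in 0 of 19 (adjusted p 0.31 to 1).

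Cldn3 (94493_at), a claudin that seals tight junctions, varied least within strain names among the junction genes. It measured 10.30 on FVBn B, 10.55 and 10.48 on ILn A and B, 10.71 and 10.64 on LP, 10.07 and 10.22 on MOLF and 10.31 and 10.04 on NZB. Both LP arrays were the highest, and MOLF and NZB overlapped below ILn. The difference was 0.40 in LP (0.12 to 0.68, adjusted p = 0.528) and −0.31 in MOLF (−0.59 to −0.03, adjusted p = 0.688), and neither passed in limma. Both LP arrays lay above the other 3 strains for 4.47% of all tested probe sets. A second probe set, 162315_f_at, was also highest on LP by mean (7.89 ± 0.46), with a difference of 0.70 in LP (−0.14 to 1.53) and −0.11 in MOLF (−0.94 to 0.73), but its sign in ILn was opposite to the first (−0.30 against 0.18).

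Cldn4 (101410_at), a claudin related to Cldn3, had no strain name with 2 arrays beyond all others. It measured 9.09 on FVBn B, 9.35 and 9.65 on ILn A and B, 9.0 and 9.96 on LP, 9.09 and 9.43 on MOLF and 9.34 and 9.17 on NZB. LP A was the lowest and LP B the highest of all 9 arrays, so that the gap of 0.97 within LP was the whole range, and both ILn arrays lay just above both NZB arrays. The range of the strain means was 0.24 (limma F test adjusted p = 0.914).

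**Figure D3:**
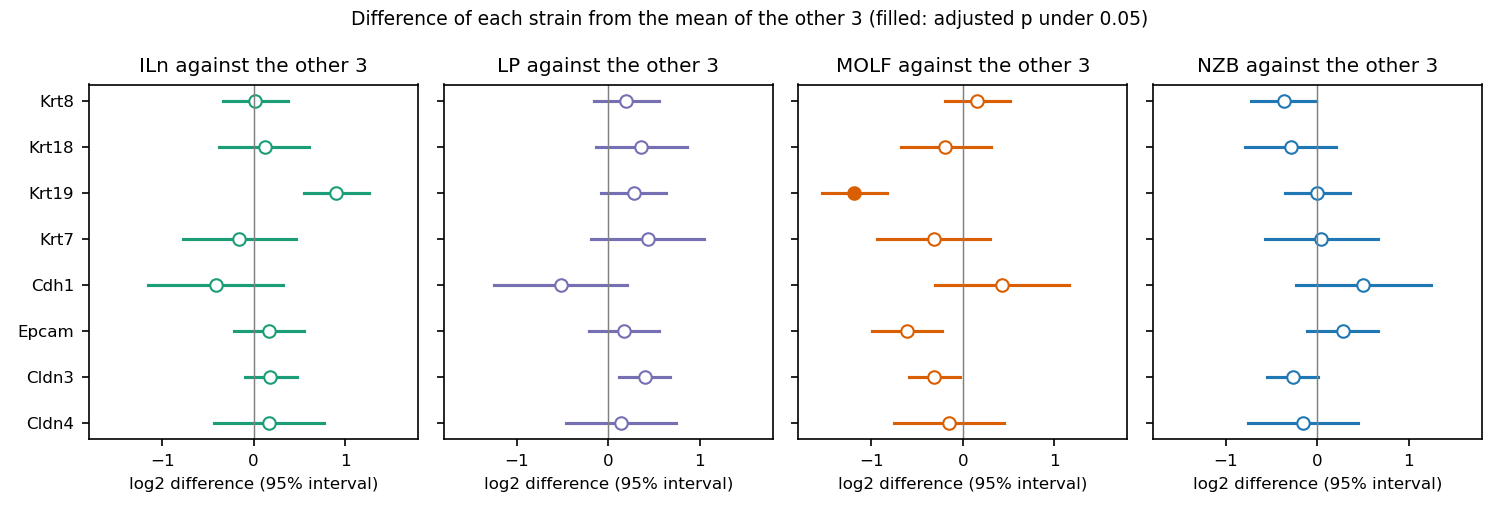
Log2 difference (horizontal axis) of each strain name from the mean of the other 3, for the 8 tested genes; bars are 95% intervals and filled points have an adjusted p under 0.05. Krt19 in MOLF at −1.19 is the only filled point; the intervals of Krt19 in ILn, Epcam and Cldn3 in MOLF, Cldn3 in LP and Krt8 in NZB also leave out 0 without passing.

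The plot of differences shows how wide the intervals are for the genes that did not pass. For Cdh1 they reach from −1.25 to 1.24 over the 4 strains, and for Cldn4 from −0.76 to 0.77. For the 8 genes together the median difference was lowest in MOLF (−0.25) and highest in LP (0.24), with 0.14 in ILn, −0.08 in NZB and 0.06 for the 4 strains against FVBn, beside medians of −0.02 to 0.02 over all tested probe sets. In MOLF 6 of the 8 genes lay below 0, and in LP 7 of the 8 lay above 0.

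For FVBn, with 1 array, no member passed against the mean of the other 4 strain names. The interval was −0.71 to 0.21 for Krt19, −0.45 to 0.48 for Krt8, −0.24 to 0.75 for Epcam and −0.29 to 0.44 for Cldn3. Its spread was taken to be that of the other groups. At an unadjusted p under 0.05 the count of members was 0 of 8, beside 338 of all 9899 probe sets.

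Variation between the arrays of one strain name set the limit for several members. The range over the 9 arrays was 1.75 for Krt19 and 1.42 for Cdh1, and 0.58 to 0.97 for the other 6, beside a median of 1.09 over all tested probe sets. For Krt19 the largest gap within a strain name was 0.35, in LP. For Krt8 it was 0.54 of a range of 0.58, in ILn, and for Cdh1 it was 1.10 of 1.42, in NZB. Over the 28 pairs of members the correlation across 9 arrays had a median of 0.14, was above 0 for 17 and ran from −0.87 for Cdh1 with Cldn3 to 0.63 for Krt19 with Cldn3. These values describe arrays that share strain names and normalization.

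Among all keratins on the array, Krt19 was again the only one to pass a test. The array carried 50 probe sets for 33 keratin genes, of which 36 probe sets for 27 genes were tested. Krt5, Krt14, Krt15 and Krt83 had every probe set at the floor on all 9 strain arrays. Krt16 and Krt20, named after their values were seen, were brightest on MOLF A and NZB B. Krt16, a keratin of activated epidermis, measured 6.77 on MOLF A and 7.25 on NZB B and lay at the floor on the other 7. This placement was not particular to keratins. On MOLF A and NZB B Cd3g measured 6.88 and 7.26 and Esr1 5.97 and 6.31, each at the floor on the other 7. Krt20, a keratin of gut and bladder epithelium, measured 7.02 on MOLF A, 5.84 on MOLF B and 7.23 on NZB B, at most 5.36 elsewhere, and lay at the floor on 4 arrays.

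**Figure D4:**
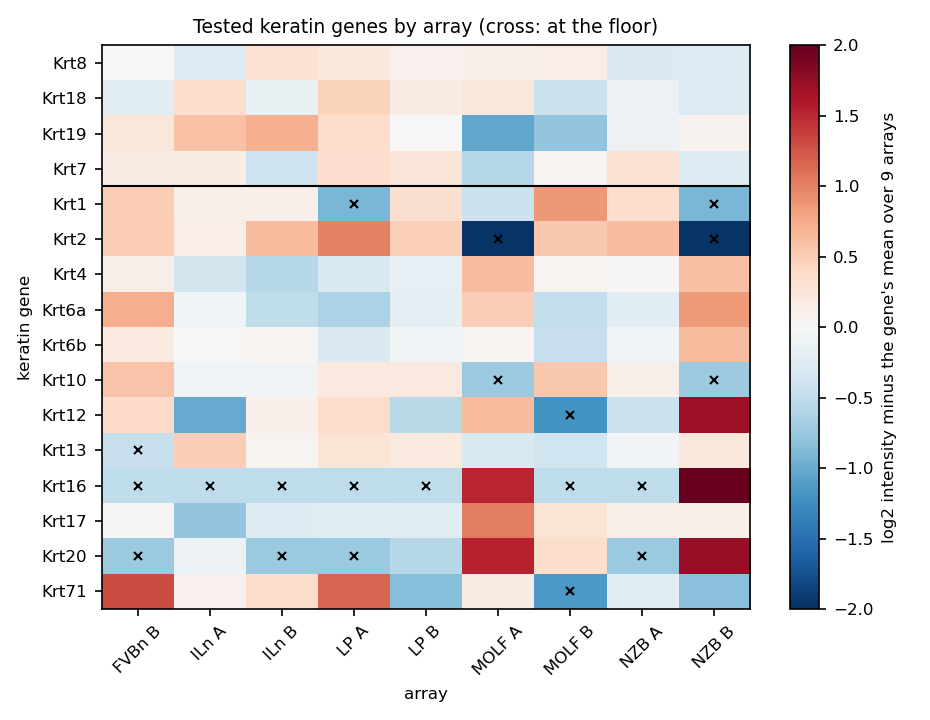
Deviation of the listed keratin genes from their mean over the 9 strain arrays (colour, log2 units), with luminal keratins above the black line and other keratins below; crosses mark values at the floor. Krt19 is lowest on MOLF A and MOLF B (8.16 and 8.41), whereas Krt16 and Krt20 are highest on MOLF A and NZB B.

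On the map of keratin genes by array, no keratin but Krt19 had both MOLF arrays below the other 7. Of 17 other keratins listed, 13 had a probe set and 12 were tested, with 0 past limma's test in any comparison. Krt4, a keratin of internal stratified epithelium, had the smallest p of them (F test adjusted p = 0.667). It measured 8.55 and 7.99 on MOLF, 7.96 and 8.53 on NZB, 7.56 and 7.36 on ILn, 7.61 and 7.77 on LP and 8.04 on FVBn. Krt17, a keratin of hair follicles and wounded skin, measured 7.85 and 7.10 on MOLF and 6.04 to 6.93 on the other 7. Its MOLF difference was 0.87 (limma adjusted p = 0.619). The share of all probe sets higher on both MOLF arrays is not given here. The 2 other Krt17 probe sets, with the opposite sign in MOLF (−0.23 and −0.36), did not pass either.

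Genes that link keratins to junctions stayed without a call. Of 18 keratin partners and linkers, 13 had a probe set and 12 were tested, 0 of them past limma's test, with a median difference of 0.23 in MOLF and −0.02 to 0.04 in ILn, LP and NZB. Pkp1, plakophilin 1 of desmosomes, measured 7.63 and 8.04 on MOLF, 7.53 and 7.40 on ILn, 6.54 and 6.74 on LP, 6.92 and 6.52 on NZB and 7.40 on FVBn. On this probe set MOLF lay above ILn, and ILn above LP and NZB, without reaching the threshold (F test adjusted p = 0.393). How many of all probe sets took this order was not counted. A second Pkp1 probe set had the same sign in MOLF (1.85 beside 0.89) but the opposite sign in ILn (−0.59 beside 0.40), and did not pass. Dsc2, a desmosomal cadherin, measured 6.93 and 6.99 on LP, and the strain names differed by at most 0.66 (adjusted p = 0.821).

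Other adherens and tight junction genes gave the same picture. Of 34 listed, 25 had a probe set and 22 were tested, with 0 past limma's test and medians of −0.14 to 0.02 over the 4 strains. Cldn11, a claudin of myelin and testis, measured 5.42 and 5.86 on NZB and lay at the floor on 5 of the other 7 arrays (F test adjusted p = 0.379). Gjb1, the gap junction protein connexin 32, measured 7.15 and 6.80 on LP and 4.79 to 6.50 on the other 7, above them without overlap (LP difference 1.45, adjusted p = 0.398). Over all tested probe sets, 4.47% had both LP arrays above the 6 arrays of ILn, MOLF and NZB. Of 14 genes of the epithelial to mesenchymal transition, 13 had a probe set, 12 were tested and 0 passed. In that list Tgfb1, a growth factor that drives the transition, lay at the floor on MOLF A and both NZB arrays and at 6.14 to 6.85 on the other 6 (F test adjusted p = 0.524). Fn1, fibronectin, measured 8.62 and 8.60 on ILn and 7.58 to 8.37 on the other 7 (F test adjusted p = 0.59). Both ILn arrays lay above the 6 arrays of LP, MOLF and NZB for 6.6% of all tested probe sets.

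In the wider list of luminal genes, which leaves out the keratins, 1 gene passed. It was Ltf, the milk protein lactoferrin, 1 of 21 tested of 26 listed. Ltf measured 10.73 and 10.51 on MOLF A and B, 11.52 and 11.57 on ILn, 11.76 and 11.66 on LP, 11.32 and 11.21 on NZB and 11.21 on FVBn. Both MOLF arrays were the lowest of the 9. Over all tested probe sets, 3.38% were lower on both MOLF arrays than on the 6 of ILn, LP and NZB. Ltf fell in MOLF by 0.88 on the log2 scale (limma adjusted p = 0.026), and passed in 3 of 18 tested alternatives (differences of −1.06 to −0.79, adjusted p 0.0137 to 0.663). Leaving out any single ILn, LP, MOLF or NZB array ended this call too (0.0661 to 0.143). The list as a whole had a median difference of −0.04 in MOLF, with 8 of 21 genes above 0, and Csn2, the milk casein with the next smallest p, measured 11.19 and 11.08 on MOLF within the range of the other strain names (10.33 to 11.71).

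Markers of other cell types moved between the strain names that Krt19 separates. All 12 markers of mammary luminal epithelium were tested, with a median difference of 0 in MOLF and 0.03 in ILn. Krt8, Krt18, Krt19, Krt7 and Epcam are among them, so the list is no separate reading of luminal cells beside the members. Its 1 call in MOLF was Krt19 itself. The summed intensity of the 12 markers, weighted to bright genes such as the milk casein Csn3, was 23600 to 27300 on the MOLF arrays. It was 21800 to 25400 on ILn, LP and NZB. Of 18 salivary and lacrimal gland markers 11 were tested. Their summed intensity was 24500 to 26100 in ILn and 35100 in FVBn, 4420 to 5450 in MOLF, 592 to 712 in LP and 570 to 693 in NZB, with Amy1 and Dnase1 at the floor on the LP and NZB arrays. In ILn 7 of the 11 passed as higher in limma, among them Chia1, Amy1, Smr3a and Dnase1. Over all probe sets 0.404% passed in ILn in either direction, 36 of the 40 as higher. In MOLF 1 gland marker passed as higher (Bpifa2), and in LP 5 and in NZB 4 passed as lower. The strain means of Krt19 were 9.85 in ILn, 9.43 in FVBn (1 array), 8.29 in MOLF, 9.39 in LP and 9.18 in NZB. Of 13 skeletal muscle markers 12 were tested, with summed intensities of 1780 to 2410 in MOLF, 1510 in FVBn, 3910 to 4000 in ILn and 10300 to 12700 in LP and NZB, and Tnni2 at the floor on both MOLF arrays. In MOLF 6 of the 12 passed as lower in limma, among them Acta1 (difference −3.24), Myh1, Myh4 and Myl1, beside 0.283% of all probe sets. In LP 6 muscle markers passed as higher, in NZB 1 and in ILn 0. The summed intensity of 10 macrophage markers was 3390 to 3830 in MOLF, 4470 to 5420 in ILn and LP and 3440 to 3950 in NZB. Fibroblast markers, all 12 tested, had a summed intensity of 7220 to 7520 in ILn and 6310 in FVBn against 4090 to 5110 in LP, MOLF and NZB. Their median difference was 0.80 in ILn and −0.29 in MOLF. In ILn 1 of 12 passed as higher, the collagen gene Col3a1 (difference 1.02, limma adjusted p = 0.016). Its 2 other probe sets, at 1.21 and −0.03, did not pass. A second probe set of the collagen gene Col1a2 also passed there (difference 1.64, limma adjusted p = 0.00315). The brightest Col1a2 probe set, the one counted, was at −0.45 and did not pass. The Col3a1 call held in 8 of 18 tested alternatives (differences of 1.0 to 1.19) and was lost without ILn A, ILn B, LP A, LP B or MOLF A (adjusted p 0.0505 to 0.35). The part of these cells in the Krt19 values was not tested.

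Genes whose pattern over the 9 arrays was most like that of a keratin were named by Pearson correlation, as a description. Their likeness on these arrays follows from that choice. For Krt18 they were Zic2 (0.937), Immt (0.932), Mtmr14 (0.906), the endoplasmic reticulum chaperone Hspa5 (0.904) and the splicing factor Sart1 (0.903). Zic2 lay at the floor on 1 array and Immt on 2. Hspa5 measured 11.08 on ILn A, 11.01 on LP A and 11.01 on MOLF A, the arrays where Krt18 was also highest. For Krt14 no such gene could be named, because it lay at the floor throughout. For Krt19, added after its values were seen, they were Ifi27 (0.956), the MHC class II chain H2-Ab1 (0.954), Ttc27 (0.954), Commd4 (0.935) and the secretoglobin Scgb1b27 (0.923). H2-Ab1 measured 7.01 and 7.47 on MOLF and 7.92 to 8.54 on the other 7, and Commd4 measured 6.56 and 6.97 on MOLF and 7.51 to 8.39 on the others.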

How the data were processed

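Total RNA of 10 mammary tumour samples was measured on Affymetrix mg_u74av2 arrays. The authors deposited 1 linear-scale intensity per probe set and array, as the values show. The method of summarising probes was not given in these sources. Samples were grouped by the strain name in the title. Of 12488 probe sets 66 controls were left out. The 9 strain arrays were quantile normalized on the log2 scale (R 4.3.3, limma 3.58.1), the array without one was mapped onto their distribution, and values under the 30th percentile were raised to it. Probe sets above the floor in at least 2 of 9 arrays (9899) were fitted with limma (lmFit, eBayes with an intensity trend), with 1 mean per strain name and 4 residual degrees of freedom. P-values were adjusted over all 9899 by the Benjamini-Hochberg method at 0.05, for 6 comparisons. The fit was tested on simulated data.

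Symbols came from the platform annotation and were updated by Entrez identifier to RefSeq names of GRCm38.p6, of which 10839 matched (10855 probe sets had 1 symbol, 396 several and 1237 none). A gene is given by its brightest tested probe set, and others are given where they differ in sign or call. Named are all members, up to 4 genes of a list past the test or else the 2 with the smallest p in the F test, and the 5 genes most like Krt18 and Krt14. Of the cell type markers, up to 4 past the test in ILn or MOLF are named, and others as examples. The members, lists and rules were chosen with earlier results of these data known. Alternatives covered normalization, filter, floor, trend, array weights, title date, array letter, probe set choice and each array left out before normalization. No sequence is printed.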

Additional observations from a re-analysis of the deposited data

How the results depend on the processing

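Over 20 alternative settings, 68 of 564 list medians moved by more than the spread within strain names. In the 19 settings with a test of the members, 42 of 904 member values changed sign, none of them past limma's threshold. The 904 include the ranges of the F test, which cannot change sign. The 42 include any change from the rounded difference of 0 for Krt19 in NZB. The mean deviation of the luminal keratins moved with median centring to −0.42 in MOLF, 0.41 in LP, −0.30 in NZB and 0.15 in FVBn. The count of members past the threshold went from 1 to 0 in the F test and for MOLF with median centring, no filter, no intensity trend, the title date or replicate block, without MOLF A and NZB B and with the mean of probe sets. It also went to 0 in the F test with the floor at the 20th percentile and for MOLF with array weights, which gave 1 for ILn. Leaving out an array gave 0 to 1 in both. Of 1385 values of the list genes followed under alternatives, 20 passed, all of them for Ltf or Col3a1. Col1a2 and the gland and muscle markers were not among the genes followed. Array letters did not pair the samples: correlations of the A minus B deviations between strains were −0.02 to 0.13, apart from MOLF with NZB. For MOLF with NZB the correlation was −0.71, so that MOLF A and NZB B deviated from their partners in a like way over the tested probe sets. The cause was not tested.

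Counts over all probe sets were, in the order F test, ILn, LP, MOLF, NZB and FVBn, 74, 40, 31, 41, 10 and 31. The replicate block gave 31, 28, 9, 26, 7 and 20, the title date block 18, 13, 0, 6, 0 and 10, and omission of MOLF A and NZB B 19, 25, 5, 0, 0 and 29. At an unadjusted p under 0.05 limma gave 347 (LP) and 487 (NZB) with the date block and 836 (MOLF) and 782 (NZB) without both arrays. Median centring gave 36, 35, 9, 23, 4 and 28, array weights 122, 92, 54, 22, 8 and 42, no filter 70, 55, 37, 33, 21 and 102, no trend 48, 39, 24, 28, 4 and 28, and the stricter filter 17 for NZB. Leaving out an array gave 14 to 81, 5 to 43, 0 to 33, 4 to 43, 0 to 35 and 16 to 32. Apart from fewer arrays or other probe sets tested, the cause of these shifts was not tested. Signal near the floor limits Krt5, Krt14 and the second Krt19 probe set.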

Other observations

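On the array whose title names no strain, 6 of the 8 tested members lay below all 9 strain arrays, as did 17.3% of all tested probe sets. Krt8 measured 9.97 (10.81 to 11.38 on the strain arrays), Krt18 9.38 (10.18 to 11.06) and Krt7 7.54 (7.71 to 8.63). Among the junction genes Cldn3 measured 8.30 (10.04 to 10.71), Epcam 7.68 (8.53 to 9.48) and Cldn4 7.62 (9.0 to 9.96). Krt19, at 9.60, and Cdh1, at 7.93, lay within the range of the strain arrays, so that Krt19 was not low where the other luminal keratins were.

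Smooth muscle genes that myoepithelial cells share lay above all strain arrays on this array, with Acta2 at 10.12 and Myh11 at 8.31. Krt5 and Krt14 stayed at the floor. The share of all probe sets above all strain arrays was not counted. Other genes of the basal and myoepithelial list lay below all strain arrays, among them Itgb4 at 5.85 and Lgals7 at the floor. The mean of that list, relative to the strain arrays, was 0.73. The mean of the adipocyte markers, relative to the strain arrays, was 3.52, that of skeletal muscle 3.10 and that of endothelium 2.16. The mean of mammary luminal markers, some of which are members, was −1.29. This is 1 array with no group, and no comparison was made with it.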
